A study of Mus musculus with 5 samples.

Results

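The E2F and pocket protein genes described here are the genes of the E2F transcription factors other than E2f6 (E2f1, E2f2, E2f3, E2f4, E2f5, E2f7 and E2f8) and of the pocket proteins (Rb1, Rbl1 and Rbl2). They were chosen by name, and all 10 were found among the 22359 protein-coding genes of the GENCODE annotation on mm9 (NCBIM37), so that each could be compared with every other promoter of the genome. Pcgf6 occupancy was measured by ChIP-seq in CCE cells, an established line of mouse ESCs that was grown with LIF and had been cross-linked with disuccinimidyl glutarate and paraformaldehyde. No gene was altered and no treatment was compared. The 5 libraries were 2 replicates of chromatin pulled down with a Santa Cruz antibody to Pcgf6, 2 replicates with an Abcam antibody, and 1 input library, which is chromatin sequenced without pull-down and serves as the background. The passage number of the cells was given as under 15 for every library.

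E2F factors bind DNA near the starts of genes needed for DNA replication and cell division, together with a DP protein as partner. The pocket proteins Rb1, Rbl1 (p107) and Rbl2 (p130) bind E2F factors and hold their target genes silent until cyclin-dependent kinases release them, while E2f7 and E2f8 need neither a DP partner nor a pocket protein. Pcgf6 is the Pcgf subunit of a variant Polycomb complex (PRC1.6) that also contains E2f6, its DP partner, and the E-box binding proteins Mga and Max. Many E2F genes carry E2F sites in their own promoters. In ESCs the pocket proteins are known to be kept largely phosphorylated, and these cells pass quickly through the G1 phase. The comparison asks how much Pcgf6 signal over input lay at the promoters of the other E2F genes and of the pocket protein genes.

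The sequences that E2F factors recognise were common at these promoters, and they are shown first. In the 300 bases from 250 before to 50 after each start, on both strands, the E2F consensus TTTNNCGC was found in 7 of the 10 genes, against 6.15% of all promoters. These 7 genes were E2f1, E2f2, E2f3, E2f7, E2f8, Rb1 and Rbl1, with 12 matches between them. A second form of the site, GCGGGAA, was found in 2 of these genes, E2f7 and Rb1, against 5.67% of all promoters, and some of its matches overlap those of the first form. Either form was present in 7 of the 10 genes and in 10.1% of all promoters. The E-box CACGTG, the site of Mga and Max, was found in none of the 10 genes and in 7.70% of all promoters. The cell cycle homology element TTTGAA was found in Rbl2 alone, against 16.1% of all promoters. Both E2F forms contain a CpG, and the 10 promoters were richer in CpG than all promoters, as given below. The shares over all promoters are not matched for this, and its part was not tested. A match is a description of the letters and does not show that a factor was bound. The first TTTNNCGC match of 6 of these genes follows, with the consensus in capitals and up to 6 flanking bases on each side. Each is read 5′ to 3′ on the strand of the gene from the NCBIM37 genome. These stretches show the letters behind the counts, and their likeness in capitals is set by the search.
E2f1: tctttcGCGGCAAAaaggat
E2f3: tgcggtGCGGAAAAataaaa
E2f7: gtccccGCGGGAAAcgctcc
E2f8: ctttccGCGCCAAAttttta
Rb1: tgacgtTTTCCCGCggttgg
Rbl1: ggcgatTTTCGCGCgctttg

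The match of E2f1 lay at chr2:154395617-154395624 and began at base 5 of the transcript, in the first exon. That of Rb1 lay at chr14:73725620-73725627 and began at base 3. The others lay before the start: at chr13:30077685-30077692 for E2f3, 155 bases before, and at chr10:110182297-110182304 for E2f7, 224 bases before. For E2f8 the match was at chr7:56136574-56136581, 170 bases before the start, and for Rbl1 at chr2:157030281-157030288, 40 bases before it. E2f4, E2f5 and Rbl2 had no match of either form in this window.

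Longer promoter sequence is given for 2 genes. Rbl1 shows 2 neighbouring E2F matches in a pocket protein gene. Tfdp1, the gene of the DP1 partner of the E2F factors, is not 1 of the 10 genes. It is shown because, E2f6 aside, it alone of the 47 other pathway genes passed the test below, with Abcam only. It also carried both an E2F match and an E-box. The 250 bases before the first annotated base of each gene follow, Rbl1 from chr2:157030271-157030520 on the minus strand and Tfdp1 from chr8:13338501-13338750 on the plus strand, with E2F matches and the E-box in capitals.
Rbl1: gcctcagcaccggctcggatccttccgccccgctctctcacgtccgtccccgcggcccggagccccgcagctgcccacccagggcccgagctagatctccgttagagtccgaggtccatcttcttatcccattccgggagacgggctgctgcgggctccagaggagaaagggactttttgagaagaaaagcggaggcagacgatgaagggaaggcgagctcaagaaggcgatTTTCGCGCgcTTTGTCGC
Tfdp1: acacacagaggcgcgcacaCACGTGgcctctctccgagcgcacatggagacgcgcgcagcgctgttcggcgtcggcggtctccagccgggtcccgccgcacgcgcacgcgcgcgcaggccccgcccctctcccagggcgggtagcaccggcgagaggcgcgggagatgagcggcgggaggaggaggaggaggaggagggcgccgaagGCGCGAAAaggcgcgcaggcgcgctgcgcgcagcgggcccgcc

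The Rbl1 sequence ends just before the first base of the annotated gene, which lies 22 bases before the start used for counting. By the median, the promoters of the 10 genes were richer in G and C than all promoters. Their GC content over the 300 bases ranged from 47.7% at E2f2 to 80.7% at Rb1, with a median of 64.8% against 55.3% over all promoters. E2f2 and Rbl2 (50.7%) lay below the median of all promoters, and E2f3 was level with it. The ratio of observed to expected CpG ranged from 0.727 at Rbl2 to 1.15 at E2f5, with a median of 0.971 against 0.538, so that all 10 lay above the median of all promoters.

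The deposited signal gave, base by base, how many reads covered a position once each read had been lengthened to 300 bp. The depth within 2 kb on either side of the start, as a share of all depth in the library, gives a scaled depth in ppm that can be compared between libraries. The position of each fragment was also recovered from the steps in the depth, which gave 22284652 positions in the input, 2564933 for Santa Cruz and 3162313 for Abcam. Most fragments of a replicate 1 were found again in its replicate 2 (87.9% for Santa Cruz, 88.1% for Abcam), not at the same position but shifted by 1 or 15 positions. Whether the replicates are separate samples or the same reads processed again is not known, so values given for each of the 4 ChIP libraries are not independent within an antibody. The replicate pairs thus differed by less than sampling noise, and each pair was counted as 1 sample by joining it into a library where repeated fragments count once. No error between replicates could therefore be given, and all intervals below are exact 95% intervals that cover counting error only. The median promoter held 69 input fragments, 7 Santa Cruz fragments and 9 Abcam fragments.

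None of the 10 promoters passed the test for enrichment over input with either antibody. Of the 22359 promoters, 136 (0.608%) passed a one-sided exact binomial test on the Santa Cruz fragments at an adjusted p under 0.05 after Benjamini and Hochberg, 242 (1.08%) passed it on the Abcam fragments, and 0.452% passed both. At an unadjusted p under 0.05 the count of the 10 genes was 0 with Santa Cruz (5.04% of all promoters) and 1 with Abcam, Rb1 (6.29% of all promoters). No gene of the 10 had an interval wholly above 1, as 3.13% of all promoters had with Santa Cruz and 4.16% with Abcam. The ratio of ChIP to input fragments, scaled by the library totals, was above 1 at 8 of the 10 genes with Santa Cruz, against 39.7% of all promoters, and at 4 of the 10 with Abcam, against 43.5%. It was above 1 with both antibodies at E2f1, E2f5, E2f7 and Rb1 (23.2% of all promoters) and below 1 with both at E2f3 and E2f8 (36.9%). The median ratio of the 10 genes was 1.13 with Santa Cruz, where that of all promoters was 0.899, and 0.813 with Abcam, where that of all promoters was 0.941. The medians thus lay on opposite sides of those of all promoters with the 2 antibodies. The input was deeper at the 10 genes, with a median of 87 fragments against 69 over all promoters. Of all promoters, 6.44% had no finite ratio above 0 with Santa Cruz and 5.92% had none with Abcam. The part of depth in these shares was not tested. In sum the 10 windows held 852 input, 115 Santa Cruz and 114 Abcam fragments.

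**Figure D1:**
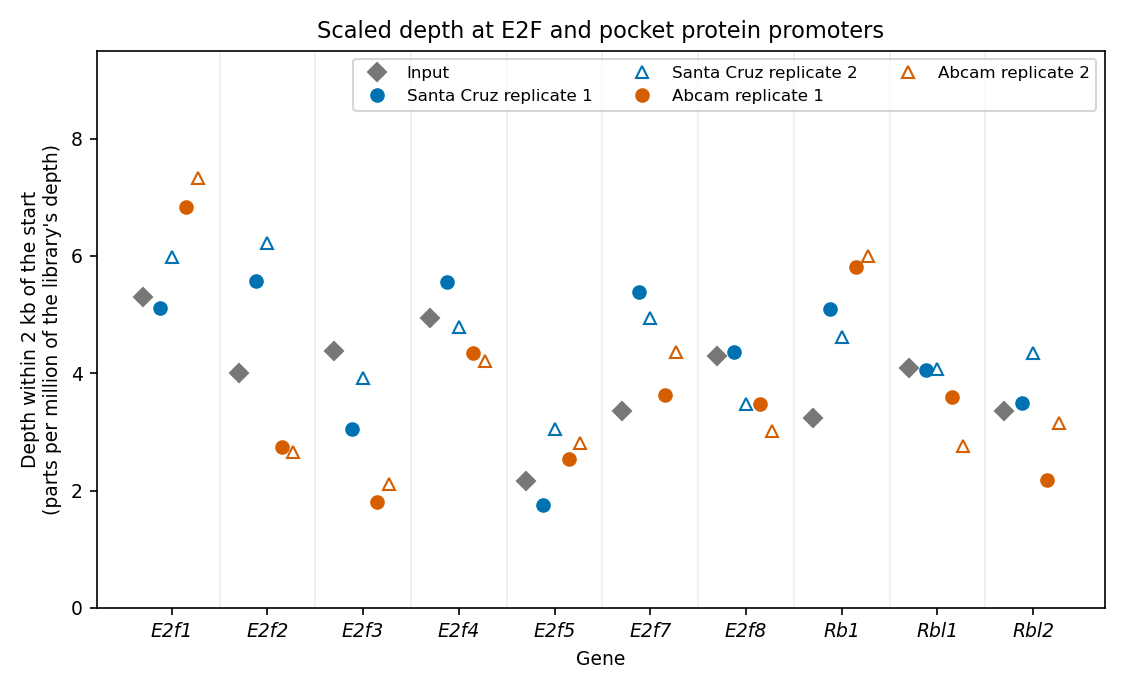
Scaled depth within 2 kb of the start (y axis, ppm of the depth of the library) at each of the 10 genes (x axis), with 1 point for each of the 5 libraries. At Rb1 all 4 ChIP libraries lie above the input point (3.24 ppm), and at E2f3 all 4 lie below it (4.39 ppm), while at E2f2 the antibodies lie on opposite sides of the input.

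The activators E2f1, E2f2 and E2f3, which switch on replication genes when the pocket proteins release them, spanned nearly the whole range of the group. E2f1 (ENSMUSG00000027490.10, chr2:154385143-154395628, minus strand) had a scaled depth of 5.29 ppm in the input, 5.12 and 5.99 ppm in the Santa Cruz replicates and 6.84 and 7.34 ppm in the Abcam replicates. The Abcam libraries were above the input and the Santa Cruz libraries on either side of it. In fragments, E2f1 held 113 in the input, 14 with Santa Cruz and 21 with Abcam. The Santa Cruz ratio was 1.08 (0.570 to 1.88) and the Abcam ratio 1.31 (0.780 to 2.10), and both intervals held 1. This promoter had the deepest input of the 10, above 94.5% of all promoters.

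E2f2 (ENSMUSG00000018983.8, chr4:135728309-135751972, plus strand) was the gene where the antibodies differed most. Its scaled depth was 4.01 ppm in the input, 5.57 and 6.22 ppm with Santa Cruz and 2.74 and 2.65 ppm with Abcam. Both Santa Cruz libraries were above the input and both Abcam libraries below it. The 85 input fragments stood against 15 with Santa Cruz, a ratio of 1.53 (0.822 to 2.67), and against 9 with Abcam, a ratio of 0.746 (0.330 to 1.48). The Abcam to Santa Cruz ratio was 0.487 (0.188 to 1.19), with an exact two-sided binomial p of 0.124 and an adjusted p of 1, so that the difference was within counting error. Of all promoters, 2 (0.00894%) differed between the antibodies at an adjusted p under 0.05, and none of the 10 genes was among the 2.45% that did at an unadjusted p under 0.05.

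E2f3 (ENSMUSG00000016477.11, chr13:29998444-30077537, minus strand) had the lowest ratio of the group with each antibody. The scaled depth was 4.39 ppm in the input, 3.06 and 3.91 ppm with Santa Cruz and 1.81 and 2.11 ppm with Abcam, so that every ChIP library was below the input. It held 96 input fragments, 9 with Santa Cruz and 6 with Abcam. The Santa Cruz ratio was 0.815 (0.361 to 1.61) and the Abcam ratio 0.440 (0.158 to 0.994). The Abcam interval lay wholly below 1, as it did at 3.12% of all promoters (with Santa Cruz, at 3.37% of all promoters and at none of the 10 genes), while the one-sided test asked only for values above the input.

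E2f4 and E2f5 are the E2F factors that act mainly as repressors together with pocket proteins. At E2f4 (ENSMUSG00000014859.8, chr8:107821563-107829269, plus strand) the scaled depth was 4.94 ppm in the input, 5.56 and 4.78 ppm with Santa Cruz and 4.35 and 4.21 ppm with Abcam. These values lay close to the input on either side. The 109 input fragments stood against 14 with Santa Cruz, a ratio of 1.12 (0.591 to 1.95), and 12 with Abcam, a ratio of 0.776 (0.389 to 1.41).

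E2f5 (ENSMUSG00000027552.7, chr3:14578671-14606308, plus strand) had the shallowest window, with 48 input, 7 Santa Cruz and 8 Abcam fragments, and so the least precise values. Its scaled depth was 2.16 ppm in the input, 1.75 and 3.04 ppm with Santa Cruz and 2.54 and 2.81 ppm with Abcam. One Santa Cruz library fell below the input and the other 3 ChIP libraries above it. The Santa Cruz ratio was 1.27 (0.484 to 2.82) and the Abcam ratio 1.17 (0.480 to 2.50).

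The atypical repressors E2f7 and E2f8, which bind DNA without a DP partner and restrain E2f1, gave different values. E2f7 (ENSMUSG00000020185.10, chr10:110182495-110224440, plus strand) had a scaled depth of 3.36 ppm in the input, 5.39 and 4.94 ppm with Santa Cruz and 3.62 and 4.37 ppm with Abcam. All 4 ChIP libraries were above the input. It held 72 input fragments, 13 with Santa Cruz and 12 with Abcam. Its Santa Cruz ratio of 1.57 (0.797 to 2.85) was the highest of the 10 genes with that antibody, and the Abcam ratio was 1.17 (0.580 to 2.18).

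E2f8 (ENSMUSG00000046179.10, chr7:56121799-56136966, minus strand) had a scaled depth of 4.29 ppm in the input, 4.37 and 3.48 ppm with Santa Cruz and 3.47 and 3.01 ppm with Abcam. One ChIP library was just above the input and the other 3 below it. There were 92 input fragments and 10 with each antibody. The Santa Cruz ratio was 0.944 (0.438 to 1.82) and the Abcam ratio 0.766 (0.355 to 1.47).

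Among the pocket protein genes, Rb1, the gene of the retinoblastoma protein, had the highest ratio of the group with Abcam. At Rb1 (ENSMUSG00000022105.6, chr14:73583480-73725629, minus strand) the scaled depth was 3.24 ppm in the input, 5.10 and 4.63 ppm with Santa Cruz and 5.81 and 6.0 ppm with Abcam, so that every ChIP library was above the input. The 72 input fragments stood against 12 with Santa Cruz, a ratio of 1.45 (0.715 to 2.69), and 17 with Abcam, a ratio of 1.66 (0.919 to 2.85). The exact one-sided binomial p was 0.155 with Santa Cruz and 0.0462 with Abcam, and the adjusted p with Abcam was 0.765. Rb1 ranked 2547 of the 22359 promoters by its Abcam ratio.

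Rbl1 and Rbl2, whose proteins p107 and p130 pair mainly with E2f4 and E2f5, had ratios above 1 with Santa Cruz and below 1 with Abcam, and all 4 intervals held 1. Rbl1 (ENSMUSG00000027641.7, chr2:156971629-157030270, minus strand) had a scaled depth of 4.08 ppm in the input, 4.06 ppm and 4.07 ppm with Santa Cruz and 3.59 and 2.76 ppm with Abcam. The Santa Cruz libraries were almost level with the input and the Abcam libraries below it. It held 89 input fragments, 11 with Santa Cruz, a ratio of 1.07 (0.517 to 2.02), and 10 with Abcam, a ratio of 0.792 (0.367 to 1.53).

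Rbl2 (ENSMUSG00000031666.8, chr8:93593956-93647743, plus strand) had a scaled depth of 3.36 ppm in the input, 3.49 and 4.35 ppm with Santa Cruz and 2.17 and 3.16 ppm with Abcam. Both Santa Cruz libraries were above the input and both Abcam libraries below it, as at E2f2. The 76 input fragments stood against 10 with Santa Cruz, a ratio of 1.14 (0.527 to 2.22), and 9 with Abcam, a ratio of 0.835 (0.368 to 1.67). The 3 pocket protein genes all had a fragment ratio above 1 with Santa Cruz, and 1 of the 3, Rb1, had one with Abcam. By scaled depth Rbl1 was just below the input in both Santa Cruz libraries, at 0.994 and 0.995 of it.

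**Figure D2:**
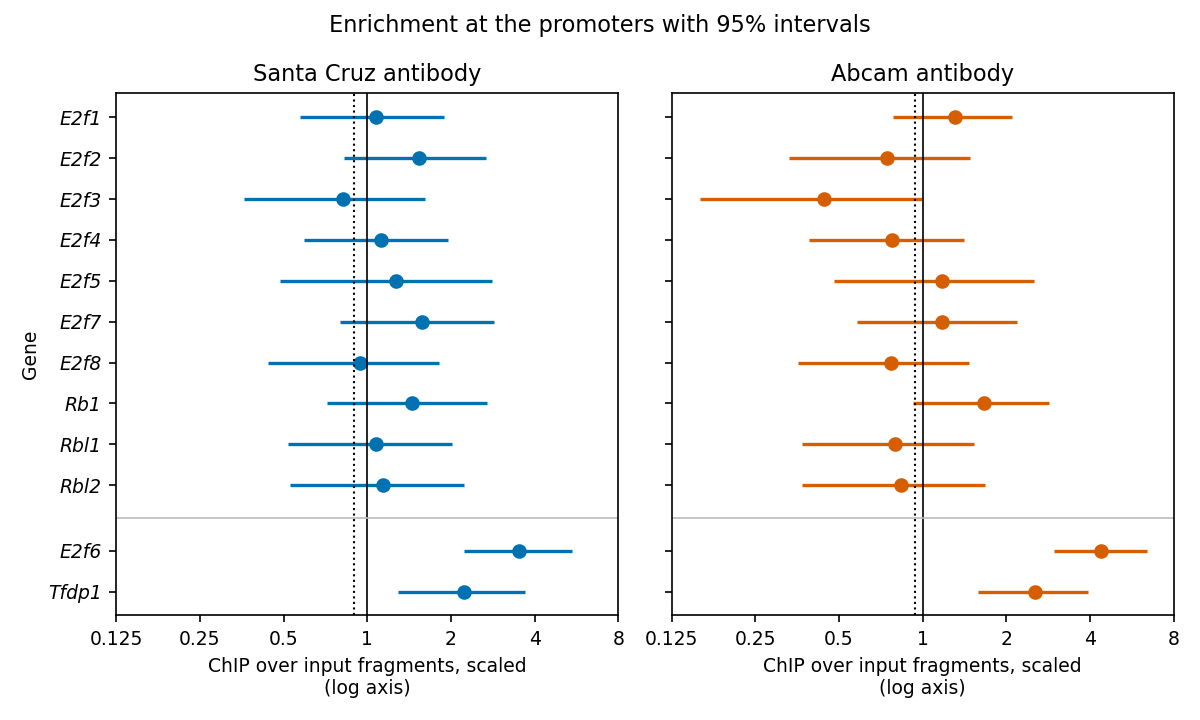
Ratio of ChIP to input fragments within 2 kb of the start, scaled by library totals (x axis, log scale), for the Santa Cruz (left) and Abcam (right) antibodies, with exact 95% intervals as lines, no enrichment as a solid line at 1 and the median of all promoters as a dotted line. The intervals of the 10 genes hold 1 except that of E2f3 with Abcam, which ends at 0.994, while the intervals of E2f6 and Tfdp1 under the grey line start at or above 1.29.

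The intervals give the range of ratios that the fragment counts allow. The upper ends of the 10 Santa Cruz intervals ran from 1.61 at E2f3 to 2.85 at E2f7, and those of the Abcam intervals from 0.994 at E2f3 to 2.85 at Rb1. E2f6, the E2F factor that is a subunit of the Pcgf6 complex, had 74 input, 30 Santa Cruz and 46 Abcam fragments, which gave ratios of 3.52 (2.22 to 5.45, adjusted p 6.38e-05 by the exact binomial test) and 4.38 (2.96 to 6.41, adjusted p 3.70e-10). Peaks were called over its start with both antibodies, with 18 Santa Cruz and 23 Abcam fragments in the strongest 600-bp window against 1.20 and 1.46 predicted from the input.

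**Figure D3:**
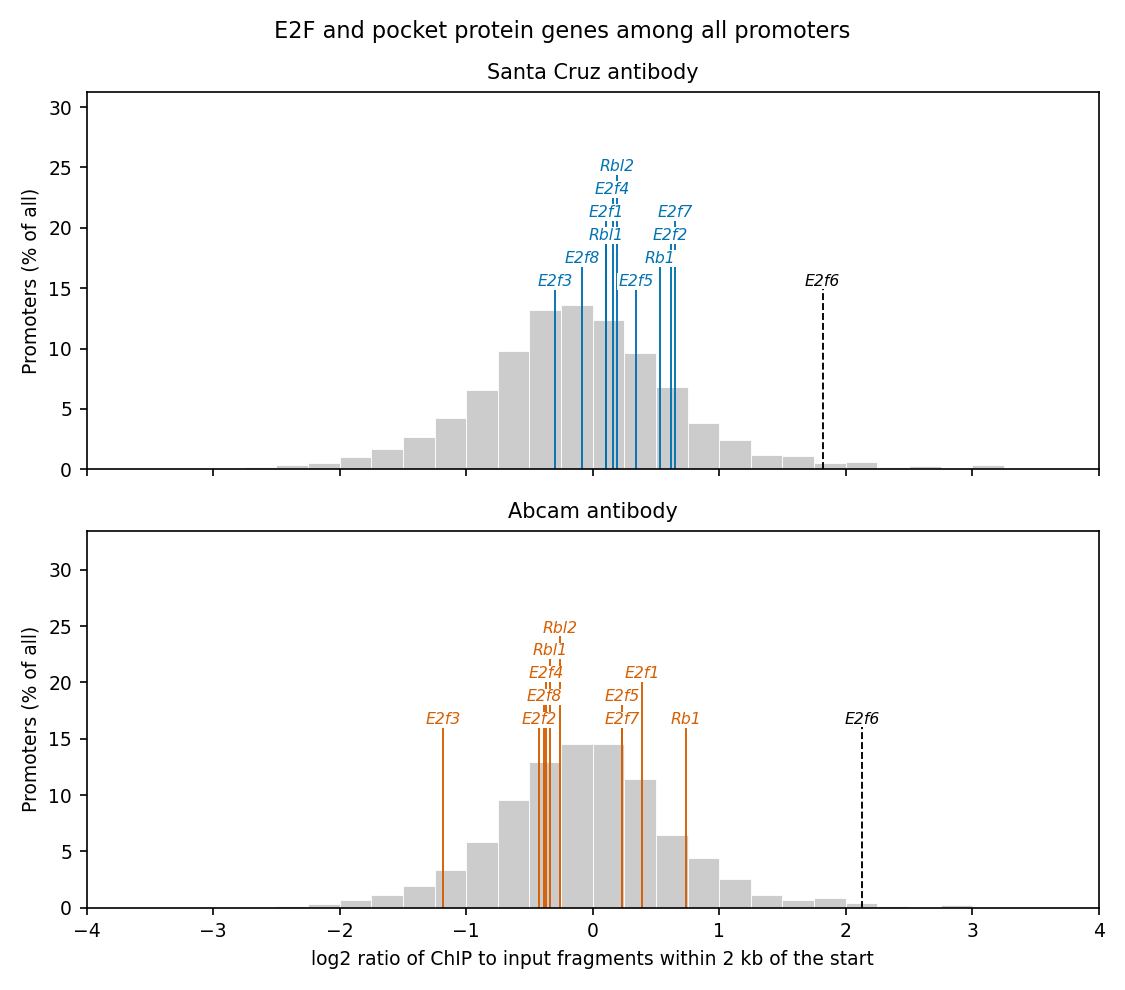
Distribution of the log2 ratio of ChIP to input fragments over the 22359 promoters (grey bars, percent of all promoters for each 0.25 of log2 ratio; promoters without a finite ratio above 0 are not drawn), with the 10 genes as coloured lines and E2f6 dashed, for Santa Cruz (top) and Abcam (bottom). The 10 genes lie within the bulk of the distribution, between the ratios 0.815 and 1.57 with Santa Cruz and between 0.440 and 1.66 with Abcam.

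Ranked over all promoters, the Santa Cruz ratios of the 10 genes lay between percentiles 40.6 (E2f3) and 83.5 (E2f7), and the Abcam ratios between 7.77 (E2f3) and 85.4 (Rb1). E2f2 moved from 82.6 with Santa Cruz to 29.2 with Abcam. E2f3 was lowest with both antibodies. Each interval of the group overlapped every other with the same antibody, most narrowly E2f3 (to 0.994) and Rb1 (from 0.919) with Abcam. Overlap does not show that genes have the same ratio, and differences between genes were not tested.

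Several of the genes have more than 1 annotated start. E2f1 has 3, E2f7 has 4, and E2f2, E2f3, E2f5 and E2f8 have 2 each. Of all 46015 starts of protein-coding transcripts, the exact binomial test called 236 (0.513%) on Santa Cruz fragments. It called 439 (0.954%) on Abcam fragments, and no start of the 10 genes was called on either. The start of E2f2 that lies farthest from its main one, 8412 bp downstream, held 106 input fragments and 6 with each antibody, ratios of 0.492 (0.177 to 1.11) and 0.399 (0.143 to 0.897). At the second start of E2f3, 1449 bp downstream, 88 input fragments stood against 8 with Santa Cruz (0.790, 0.331 to 1.63) and 3 with Abcam (0.240, 0.0486 to 0.725). Windows 1449 bp apart share fragments, so the values at the starts of E2f3 are not independent. The second start of E2f8, 555 bp upstream, gave 0.823 with Santa Cruz and 0.742 with Abcam. No start of the 10 genes had a ratio above 2 with either antibody.

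Peaks were searched for within 10 kb of the starts with a Poisson test in 600-bp windows against the input. At the p cutoff of 1e-05, 449 promoters (2.01%) had a Santa Cruz peak and 754 (3.37%) an Abcam peak within this distance, and none of the 10 genes had one with either antibody. None appeared at the looser cutoff of 1e-04. The strongest Santa Cruz window was at E2f7, 321 bp before the start, with 7 fragments against 1.15 predicted (p 0.000198). With Abcam it was at E2f4, 7813 bp before the start, with 9 fragments against 2.16 predicted (p 0.000416). These were the strongest of all windows within 10 kb, so their p-values are not those of a single test. The nearest peaks of all were Abcam peaks 13.7 kb from the start of E2f4 and 19.6 kb from that of E2f1, and a Santa Cruz peak 22.9 kb from that of E2f8.

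Summed over the 10 genes, the share of fragments close to the starts had an interval that overlapped that of the input with each antibody. Within 500 bp of the starts lay 47 of 115 Santa Cruz fragments (40.9%, exact interval 31.8% to 50.4%) and 40 of 114 Abcam fragments (35.1%, 26.4% to 44.6%), against 290 of 852 in the input (34.0%, 30.9% to 37.3%). The intervals overlapped. The genes varied among themselves, with few fragments behind each share. At E2f7, 8 of 13 Santa Cruz fragments lay within 500 bp and 10 of 13 lay before the start. Of the 17 Abcam fragments at Rb1, the gene with the highest Abcam ratio, 2 lay within 500 bp of the start, where 6 of 12 Santa Cruz fragments did.

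**Figure D4:**
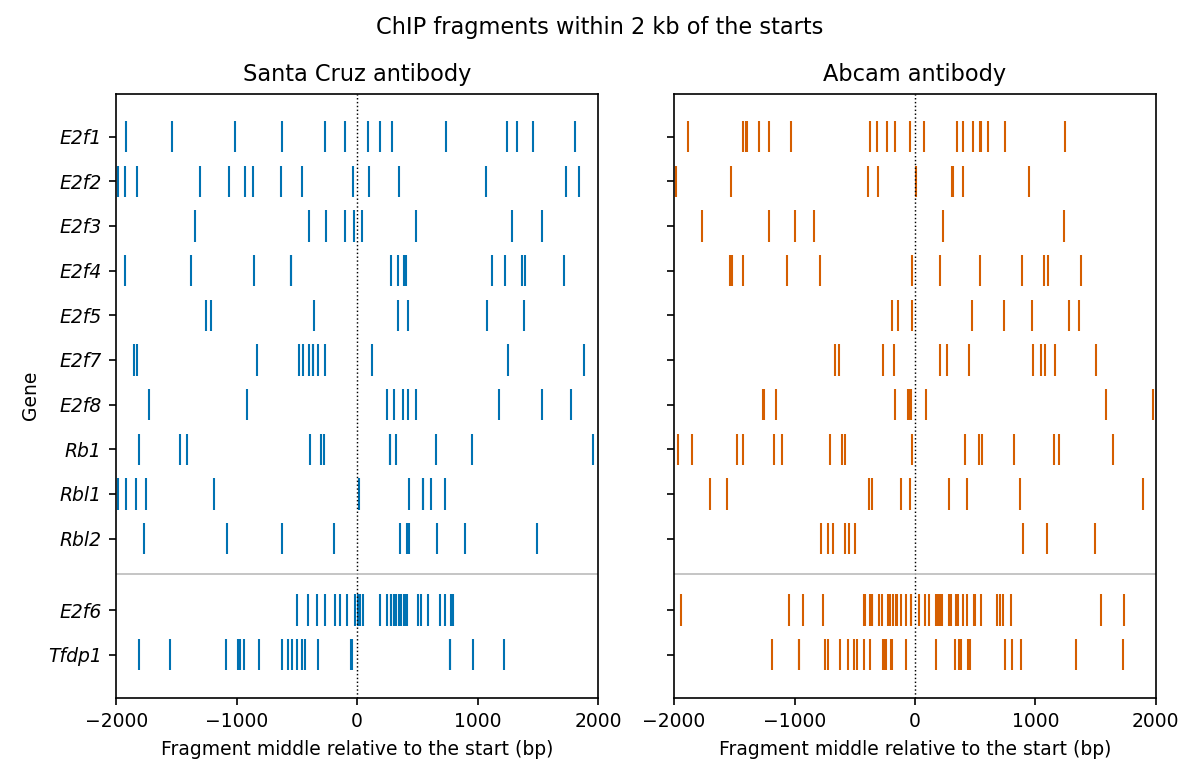
Middle of each ChIP fragment (vertical bars) relative to the start (x axis, bp, negative before the start) at the 10 genes and, under the grey line, at E2f6 and Tfdp1, for the joined libraries of each antibody. Fragments of the 10 genes are spread over the window, with 47 of 115 Santa Cruz and 40 of 114 Abcam fragments within 500 bp, while those of E2f6 crowd around the start.

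The other genes of the pathway were described in 5 groups, which held 47 genes in all. With Santa Cruz none of the 47 passed the exact binomial test over all promoters, and 3 did at an unadjusted p under 0.05 (Tfdp1, Cdk6 and Ccne2), where 0.608% and 5.04% of all promoters did. With Abcam 1 of the 47 passed, Tfdp1, and 5 did at an unadjusted p under 0.05 (Tfdp1, Lin37, Cdk6, Ccne2 and Cdkn2a), where 1.08% and 6.29% of all promoters did. Ccne2, Lin37 and Cdkn2a are named because of these counts, after their values were seen. The median ratio of the 47 genes was 0.909 with Santa Cruz and 1.05 with Abcam, and 20 and 25 of them had a ratio above 1 (39.7% and 43.5% of all promoters).

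The DP partners differed. Tfdp1 (chr8:13338751-13378395) held 78 input fragments, 20 with Santa Cruz (2.23, 1.29 to 3.68, adjusted p 0.216 by the exact binomial test) and 28 with Abcam (2.53, 1.58 to 3.94, adjusted p 0.0101). Its Abcam fragments were 15 of 28 within 500 bp of the start, and 16 of its 20 Santa Cruz fragments lay before the start. A Santa Cruz peak was centred 701 bp and an Abcam peak 451 bp before it. Without Abcam replicate 2 the adjusted p rose to 0.0953 (ratio 2.28), and within 10 kb in place of 2 kb the ratio was 1.20 (adjusted p 0.857). Within 1 kb, Tfdp1 passed with both antibodies, at 4.63 (adjusted p 0.00200) and 5.87 (adjusted p 5.42e-07). Tfdp2, the gene of the other DP protein, had ratios of 0.909 and 0.656.

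Of the 9 G1 cyclins and kinases, which phosphorylate pocket proteins or activate the kinases that do, none passed with either antibody. Cdk6 had the highest Santa Cruz ratio of all 47 genes and the second highest with Abcam, at 2.28 (1.06 to 4.5, 11 fragments) and 2.18 (1.07 to 4.14, 13 fragments) over 42 input fragments, with adjusted p of 0.675 and 0.465 by the exact binomial test. Ccnd1, the gene of cyclin D1, had ratios of 0.958 and 1.17 at its start, and peaks with both antibodies 3276 and 3426 bp before it. These held 12 Santa Cruz fragments against 2.04 predicted and 14 Abcam fragments against 2.50. Abcam peaks were also called within 10 kb of the starts of Cdk2, a kinase gene, and Pcna, the gene of the replication clamp. They were centred 8457 and 5350 bp after the starts, beyond the far ends of the genes. They held 14 fragments against 1.87 predicted at Cdk2 and 9 against 0.868 at Pcna, both without a Santa Cruz peak there. Ccnd1, Cdk2 and Pcna are named after their values were seen.

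The 7 genes of the MuvB core with its Myb and Fox partners had a median ratio of 0.985 with Santa Cruz and 1.07 with Abcam. The lowest Santa Cruz ratio of the genes with ChIP fragments was that of Rbbp4, a histone-binding subunit of MuvB, at 0.334 (3 fragments, 0.0675 to 1.01), while its Abcam ratio was 1.17 (13 fragments). The 7 CDK inhibitors had medians of 0.719 and 1.11, with Cdkn2d, which held 1 input fragment and no ChIP fragment and so gave no ratio, counted at 0. Cdkn1a (p21) had 1.31 with Santa Cruz and the second lowest Abcam ratio, 0.483 (5 fragments, 0.152 to 1.18).

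The 22 E2F target genes of DNA replication had a median Santa Cruz ratio of 0.764 and a median Abcam ratio of 1.0. None of them passed the test or reached an unadjusted p under 0.05 with either antibody. Cdk1, a mitotic kinase gene, was the next lowest with Santa Cruz after Rbbp4 at 0.401 (3 fragments, 0.0806 to 1.22). Mcm7, a subunit of the replicative helicase, had the lowest Abcam ratio at 0.440 (6 fragments, 0.158 to 0.994), the same counts as at E2f3. The difference between Tfdp1 and the other groups was not tested.

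**Figure D5:**
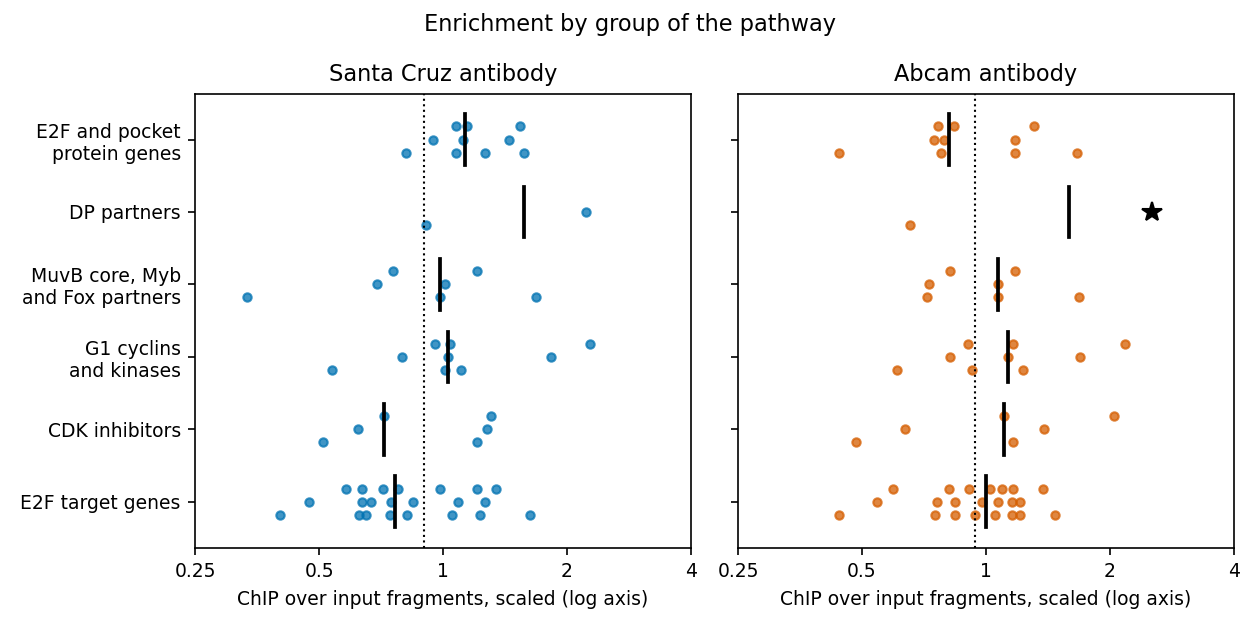
Ratio of ChIP to input fragments (x axis, log scale) for each gene of the E2F and pocket protein group and of the 5 other groups of the pathway (y axis), with the group median as a thick bar, the median of all promoters as a dotted line and a star for a gene past the threshold. The single star is Tfdp1 with Abcam at 2.53, and Cdkn2d, without ChIP fragments, is not drawn.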

How the data were processed

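Per the submitters' processing notes, reads were aligned to mm9 with Bowtie. Read filters are not given in the sources used here. The authors deposited a coverage signal for each library, counting the reads over each base once every read was lengthened to 300 bp, with no scaling and no subtraction of input. Fragments were recovered here by pairing each rise of depth with the fall 300 bp on, and no library had more than 0.0271% of its falls unpaired. Strand is not kept, so 1 fragment was kept for each position and placed at its middle. The replicates of an antibody were joined. The sources do not say how the replicates were made, and with most fragments shared they give no measure of variation between cultures.

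ChIP and input fragments within 2 kb of the start shared by most protein-coding transcripts (the upstream one on a tie) were compared by a one-sided exact binomial test, adjusted over 22359 promoters, with Clopper-Pearson intervals. Such a test compares the fragments of 2 libraries, not replicated conditions. Peaks came from a Poisson test in 600-bp windows and 50-bp bins, against the largest of the genome, 5 kb and 10 kb input rates. Fragment recovery, the one-sided promoter test and, at the Santa Cruz depth on part of the genome, the peak search were tested on simulated data. The other steps were not. The 10 genes and the lists were chosen with earlier results of these data known. Named from the other lists were genes past the threshold and the 2 highest and 2 lowest ratios for each antibody. Alternatives are given in the closing section. Tools were scipy 1.17.1, numpy 2.4.6, numba 0.67.0, pandas 2.3.3 and matplotlib 3.10.9 in Python 3.11.15. One further promoter sequence is not reported here.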

Additional observations from a re-analysis of the deposited data

How the results depend on the processing

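Each ratio of the 10 genes was recomputed under 12 alternatives for each antibody, 240 values in all. None of those with a test passed the threshold and none left the interval of its reported value, while 20 lay on the other side of 1. The depth ratios of single libraries had no test. Those ratios and the fits without 1 replicate reused most of the same fragments, so they were little able to leave the intervals. A two-sided test and a floor of 20 input fragments could not change a ratio, and the most upstream start changed it at E2f8 alone. The smallest adjusted p was 0.108, for Rb1 with Abcam when all fragments were used as deposited, which counts shared fragments again. That setting raised the Santa Cruz promoters past the threshold from 136 to 379 and the Abcam promoters from 242 to 621, and a window of 10 kb on each side lowered the Santa Cruz count to 87. Leaving out 1 replicate gave 108 to 120 promoters with Santa Cruz, 203 to 219 with Abcam and 2 between the antibodies. Santa Cruz peaks numbered 721, or 1768 at a cutoff of 1e-04 and 434 at 1e-06, and Abcam peaks 1017, or 2079 at 1e-04. No paired analysis was possible because most fragments of an antibody's replicates were shared at shifts of 1 or 15 positions. The replicate numbers could thus not be treated as marks of separate samples. Depth limits the ratios, since a promoter of the group held 6 to 21 ChIP fragments.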

Other observations

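Promoters anywhere in the genome were also split by the E2F letters that 7 of the 10 genes carry. Of the 2258 promoters with either E2F form, 31 (1.37%) passed the threshold with Santa Cruz and 57 (2.52%) with Abcam, against 0.522% and 0.920% of the 20101 without. Of the 232 promoters with both an E2F form and an E-box, such as Tfdp1, 9 (3.88%) passed with Santa Cruz and 18 (7.76%) with Abcam, against 0.574% and 1.01% of the others. Promoters with an E-box, whatever their E2F letters, passed at 2.15% with Santa Cruz and 3.31% with Abcam, above the shares for the E2F forms. The median ratio of promoters with either E2F form was 0.910 with Santa Cruz and 0.958 with Abcam, close to that of promoters without (0.899 and 0.940). Promoters with either form had a higher median GC content (61.3% against 54.3%) and more input fragments (a median of 78 against 67), and the part of GC content and depth in these shares was not tested.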
